A study of Mus musculus with 6 samples.

Results

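The genes described here are 42 mouse genes of the ATF4 and amino acid response, listed by name, among 24938 genes listed for each library. Each symbol matched 1 Ensembl gene of the files through the mouse GENCODE annotation, so all 42 members were found. RNA was sequenced from NIH3T3 cells, an established line of mouse embryonic fibroblasts. The 3 control libraries came from cells labelled wild type. In the other 3, the cells overexpressed F-CircAE, which the labels describe as a fusion circular RNA tied to AML1-ETO, the joining of the RUNX1 and RUNX1T1 genes in human acute myeloid leukaemia. Cell line and library type were the same in both groups, and the labels give no treatment, time, vector or clone for either. The controls are labelled wild type, while the library titles use the letters V and C, which the labels do not explain. From these labels the overexpression procedure and the F-CircAE transcript itself cannot be told apart. Nothing in the labels ties the replicates to cultures of their own, and the p-values below therefore reflect library-to-library spread, which may be technical.

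ATF4 is a leucine zipper transcription factor. When amino acids run short or unfolded proteins collect in the endoplasmic reticulum, kinases such as GCN2 and PERK phosphorylate the initiation factor eIF2, general translation slows, and Atf4 mRNA is translated more. The factor then binds, often with a C/EBP partner, to short elements in genes for amino acid synthesis, amino acid transport and stress control. In cultured fibroblasts the programme is known to respond to the supply of amino acids in the medium and to growth signalling. Protein and phosphorylation were not measured here, and the values below are mRNA levels.

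The element bound by ATF4 and C/EBP factors was looked for in promoters as the letters TGATGNAA on either strand, where N is any base. Promoter windows were 300 bases long, from 250 before to 50 after a RefSeq transcript start (GRCm38.p6, the mm10 assembly). Windows were found for 37 of the 42 members. Of these 37, 11 (29.7%) held the letters, against 4.51% of 27025 genes with a window. Among genes that were also tested for expression, 8 of 32 members held them, against 2.43% of 8672 genes. The members were listed as genes of the ATF4 response, so their higher share is not a result of these data. The narrower form TGATGCAA, which is part of the search above, lay in 9 of the 37 (24.3%) and in 1.03% of all genes with a window. The following 30-base stretches are shown because they carry the element in the 8 members whose expression could be tested. The letters that matched are in capitals, and each stretch is read 5′ to 3′ on the strand named.
Slc7a11, chr3:50443661-50443690, minus strand: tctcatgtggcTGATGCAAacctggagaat
Slc7a11, chr3:50443642-50443671, plus strand: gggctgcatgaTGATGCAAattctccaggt
Chac1, chr2:119351038-119351067, minus strand: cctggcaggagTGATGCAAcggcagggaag
Trib3, chr2:152344028-152344057, plus strand: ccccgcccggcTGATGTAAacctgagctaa
Asns, chr6:7693214-7693243, minus strand: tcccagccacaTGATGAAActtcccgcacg
Pycr1, chr11:120643833-120643862, minus strand: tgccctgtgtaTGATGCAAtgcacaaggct
Nupr1, chr7:126625562-126625591, plus strand: caagccctgtcTGATGCAAtctggcccttt
Slc1a4, chr11:20332699-20332728, plus strand: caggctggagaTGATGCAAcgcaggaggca
Got1, chr19:43524689-43524718, plus strand: ggaggcttgtaTGATGCAAccaatgcaatg

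Slc7a11 held the element on both strands a short distance apart. Its 250 bases before the start are shown because its level differed most between the control libraries among tested members, and those of Chac1 because it came next. Capitals again mark the matched letters, which read TTGCATCA where the element lies on the other strand.
Slc7a11, chr3:50443614-50443863, minus strand: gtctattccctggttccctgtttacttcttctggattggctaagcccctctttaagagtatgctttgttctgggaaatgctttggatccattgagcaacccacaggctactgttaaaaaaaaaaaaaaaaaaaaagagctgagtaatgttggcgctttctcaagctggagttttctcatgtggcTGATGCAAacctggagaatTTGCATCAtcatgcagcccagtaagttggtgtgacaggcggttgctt
Chac1, chr2:119350992-119351241, plus strand: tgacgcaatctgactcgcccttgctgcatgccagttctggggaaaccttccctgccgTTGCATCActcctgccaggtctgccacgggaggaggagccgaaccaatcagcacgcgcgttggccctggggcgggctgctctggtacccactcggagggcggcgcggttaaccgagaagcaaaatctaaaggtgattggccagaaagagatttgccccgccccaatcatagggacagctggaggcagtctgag
Atf3, Fgf21 and Vldlr also held the element, and their expression was too low to test. A match is a run of letters in this window and says nothing of binding in these cells.

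Values are FPKM, fragment counts scaled by the authors to gene length and to a factor for each library. The reads behind them, recovered from the steps between low values, came to between 16968111 and 21842185 per library. Within 0.0094%, the factor equalled the median over genes of a library's reads relative to their geometric mean over libraries. It was not proportional to total reads, which ran from 0.98 to 1.02 relative to it. Control replicates 1 and 2 were close to each other. The chi-square per gene between their reads was 1.46 over 14527 genes, where counting error alone gives 1, and 1.05 over 39 members with enough reads. In the 14 other pairs of libraries it ran from 5.15 to 25.1 over all genes and from 9.11 to 262.5 over the members. Because a difference beyond counting error remained over all genes, the 2 libraries were entered separately. If they share a culture or an RNA, control SDs and p-values are too small. All 8 fibroblast markers found in the files were above 1 FPKM in at least 3 libraries, with sums of 1619 to 1915 FPKM in control and 1495 to 1798 FPKM with overexpression. The 3 leukocyte markers summed to at most 6.38 FPKM, the 3 epithelial markers to at most 3.73 FPKM and the 2 endothelial markers to at most 1.08 FPKM, with none at 0 in all 6 libraries. Fewer cells with a transcript and less of it per cell cannot be told apart in such bulk libraries.

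Of the 42 members, 37 were above 1 FPKM in at least 3 libraries and were tested, among 12222 tested genes. At an adjusted p threshold of 0.05, no member differed between the groups, and neither did any other gene, so 0% of the tested genes were called (limma, Benjamini-Hochberg). The smallest adjusted p among members was 0.842. At an unadjusted p below 0.05 there were 0 members in either direction, beside 350 genes higher (2.86%) and 282 lower (2.31%) among all tested. After rescaling to total reads the counts over all tested genes became 175 higher and 453 lower. The median log2 fold change was 0.02 over the 37 members and 0.008 over all tested genes, with 19 members above 0 and 18 below. Of all tested genes, 53.2% had estimates above 0. Rescaled to total reads, 17 members were above 0 and 20 below, with a median of -0.01 beside -0.02 over all tested genes. The share of all tested genes above 0 was then 42.6%. All log2 fold changes are of FPKM + 1, overexpression against control, which understates the change of low genes.

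The members varied most within the control group. Control replicate 3 was the highest of the 3 controls in 34 of the 37 tested members (91.9%), against 43.6% of all tested genes. It held the highest FPKM of all 6 libraries in 29 members (78.4%), against 17.9%. It was more than 1.5 times above both other controls in 19 members (51.4%), against 2.62% of tested genes. The median ratio of control replicate 3 to the mean of control replicates 1 and 2 was 1.51 over the members and 1.003 over all tested genes. Control replicates 1 and 2 differed from each other by at most 1.09-fold in any tested member. In 35 members the range among the controls on the log2(FPKM + 1) scale exceeded the difference between the group means, which was so for 80.6% of all tested genes. The median control range was 0.58 for members and 0.18 for all tested genes, whereas the median range among overexpression libraries was 0.21 and 0.19. The control range exceeded the overexpression range in 30 members, against 46.2% of tested genes. Rescaled to total reads, control replicate 3 was still highest in 30 members and above 1.5 times both other controls in 17.

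**Figure D1:**
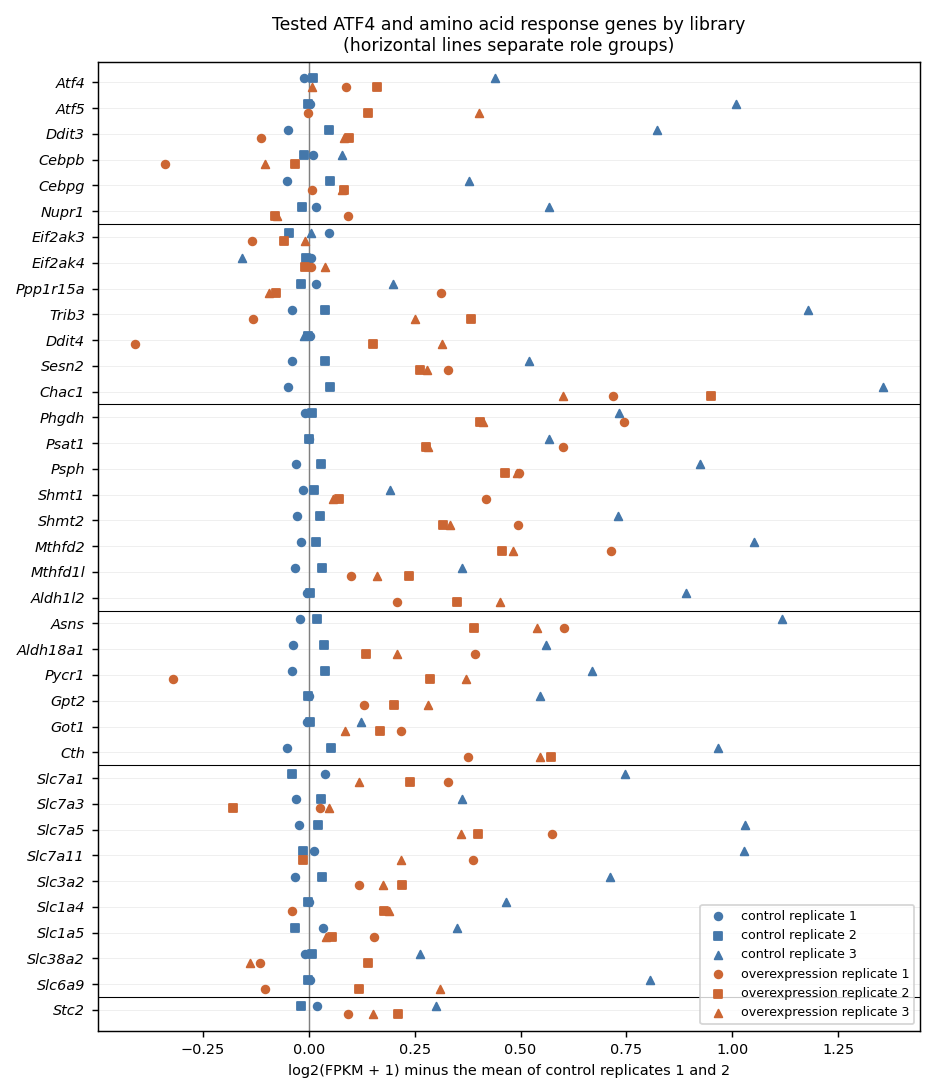
Difference of each library from the mean of control replicates 1 and 2, on the log2(FPKM + 1) scale, for the 37 tested members, in order of role from transcription factors at the top to Stc2 at the bottom. Blue symbols are control and orange symbols overexpression libraries, with circles, squares and triangles for replicates 1, 2 and 3; the blue triangle of control replicate 3 is the rightmost point in 29 rows.

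Relative to control replicates 1 and 2 alone, the overexpression libraries stood higher for many members. All 3 lay above both of these controls in 20 of 37 members (54.1%), against 21.8% of tested genes, and below both in 1 member, against 17.9%. They lay below control replicate 3 in 30 members (81.1%), against 22.6%. In 16 members (43.2%) all 3 lay above control replicates 1 and 2 and below control replicate 3, an arrangement found in 5% of tested genes. The median ratio to the mean of control replicates 1 and 2 was 1.11, 1.14 and 1.16 in overexpression replicates 1, 2 and 3, where all tested genes gave 1.004, 1.014 and 1.006. Fitted without control replicate 3, the median log2 fold change over the members was 0.17 with 32 of 37 above 0, and 0.009 with 52.4% above 0 over all tested genes. The other control omissions moved the members the other way, with 12 of 37 above 0 and a median of -0.07 without control replicate 1, and 13 of 37 and -0.07 without control replicate 2. Averaging the near-identical control replicates 1 and 2, so that they counted once, gave 13 of 37 above 0 and a median of -0.07. The sign of the members' median thus depended on which control libraries entered and how they were counted. In the fit without control replicate 3, 17 members had an unadjusted p below 0.05 and a higher level with overexpression (limma). This held for 8.71% of tested genes. There were 0 members with such a p and a lower level, beside 6.59% of tested genes. No member passed after adjustment in that fit, while 2 genes of all tested (0.0164%) did. The fit without control replicate 3 rests on the near-identical control pair, so its p-values and standard errors, here and below, may be too small. Control replicate 3 was also the highest control in 34 of the 37 members, so leaving it out raises most member estimates by construction. The member counts of that fit are therefore no separate support for a difference between the groups. With all 6 libraries weighted by their fitted variance (array weights), 8 members were called higher and 0 lower after adjustment, beside 11.1% and 7.28% of tested genes (limma); averaging control replicates 1 and 2 under the same weights left 0 members and 0 genes called.

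**Figure D2:**
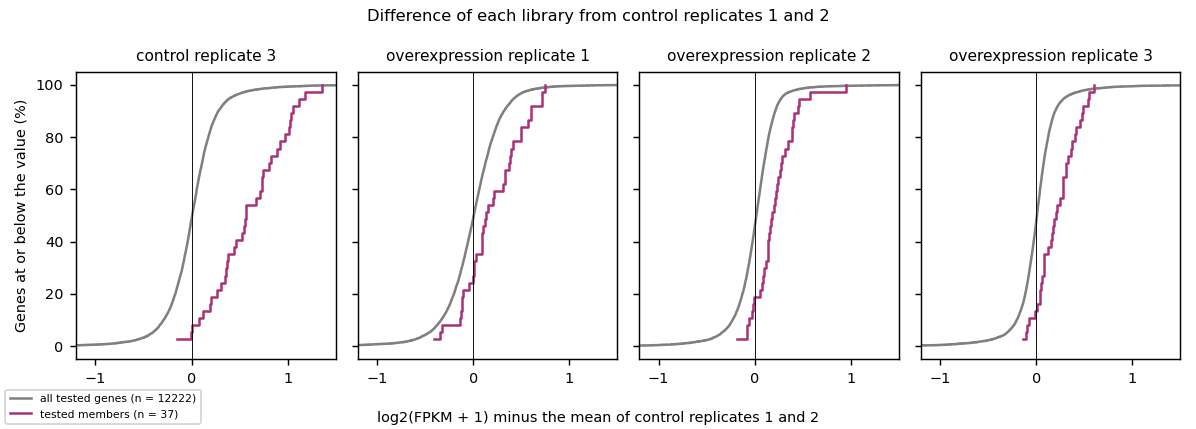
Cumulative share of genes, in percent, by their difference from the mean of control replicates 1 and 2 on the log2(FPKM + 1) scale, with 1 panel for each of the other 4 libraries. The purple line of the 37 tested members lies furthest right of the grey line of all 12222 tested genes in control replicate 3 (median ratio 1.51) and nearer to it in the overexpression libraries (1.11 to 1.16); the few genes beyond the axis limits are not drawn.

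In what follows, values are given for replicates 1, 2 and 3 in that order. Among the transcription factors, 6 of 7 were tested, all 6 were highest in control replicate 3, and all 6 had estimates below 0 with a median of -0.17. Without control replicate 3, 4 of the 6 estimates were above 0, with a median of 0.04. Atf4 (ENSMUSG00000042406, chromosome 15, 80255184 to 80257541, mm10) had 205, 208 and 281 FPKM in control and 220, 231 and 208 with overexpression. Its lowest library stood above every library of every other member, and the overexpression values overlapped those of control replicates 1 and 2. The group means were 231 ± 42.7 and 220 ± 11.8 FPKM (SD, n = 3). Atf5, a related factor of the mitochondrial stress response, had 35.8, 35.7 and 72.9 FPKM in control and 35.7, 39.5 and 47.5 with overexpression. Its control replicate 3 stood 2.04 times above the mean of the other controls, and only overexpression replicate 3 moved clearly in the same direction, at 1.33 times. Ddit3 encodes CHOP, a C/EBP-related factor of prolonged stress (ENSMUSG00000025408, chromosome 10, 127290774 to 127296288). It had 8.73, 9.40 and 16.8 FPKM in control and 8.31, 9.74 and 9.66 with overexpression. Ddit3 had the lowest estimate of the tested members, with a log2 fold change of -0.25 (SE 0.22; limma adjusted p = 0.850) in 6 libraries and 0.02 (SE 0.08) without control replicate 3. Averaging control replicates 1 and 2 gave -0.39 for Ddit3. Exons of Ddit3 overlap those of Mars on the other strand over 4.0% of its exon length, and Mars stood 1.59 times higher in control replicate 3.

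Cebpb encodes a partner of ATF4 and regulator of fibroblast and fat cell genes. It had 28.2, 27.8 and 29.6 FPKM in control and 21.9, 27.4 and 26.0 with overexpression. Cebpb was the only tested member whose groups did not overlap, with all 3 overexpression libraries lower, where 4.69% of tested genes did so, and 0 members did so in the higher direction, where 6.81% of tested genes did. The log2 fold change of -0.18 had a standard error of 0.09 and a 95% interval of -0.39 to 0.02 (limma adjusted p = 0.842). Over 20.7% of its exon length it overlaps Tmem189 on the other strand, which had 6.68 ± 0.42 and 7.47 ± 0.30 FPKM (SD, n = 3). Nupr1, a small chromatin-associated stress protein, had 16.14, 15.76 and 24.12 FPKM in control and 17.08, 15.03 and 15.08 with overexpression. The overexpression libraries lay around control replicates 1 and 2, with a log2 fold change of -0.21 (SE 0.16; limma adjusted p = 0.845) and of -0.02 (SE 0.07) without control replicate 3. Averaging control replicates 1 and 2 gave -0.30 for Nupr1. Cebpg, a further dimer partner, ranged from 12.7 to 17.4 FPKM. Atf3, a repressor of the same family, rested on 4, 4 and 1 reads in control and 0, 1 and 0 with overexpression and was not tested; a count of 0 allows up to 3 reads, counting error only.

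**Figure D3:**
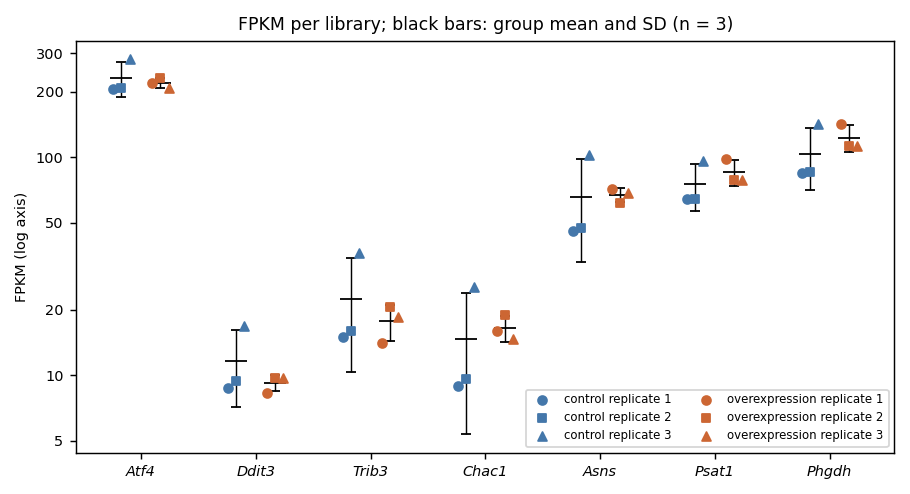
FPKM of Atf4, Ddit3, Trib3, Chac1, Asns, Psat1 and Phgdh in each library on a log axis, with blue symbols for control and orange for overexpression, and black bars for the group mean and SD (n = 3). In each gene the blue triangle of control replicate 3 stands above control replicates 1 and 2, for example at 103 against 46.1 and 47.4 FPKM in Asns.

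All 7 kinase and feedback genes were tested, with 4 estimates above 0 (3 after rescaling to total reads) and a median of 0.02, and without control replicate 3 with 6 above 0. The kinases upstream of ATF4 did not share the high values of control replicate 3. Eif2ak3, which encodes PERK, the kinase of the endoplasmic reticulum, had 5.47, 5.07 and 5.30 FPKM in control and 4.71, 5.02 and 5.23 with overexpression. The groups overlapped, with a log2 fold change of -0.07 (SE 0.07; limma adjusted p = 0.850). Eif2ak4, which encodes GCN2, the kinase that senses uncharged tRNA, had 6.76, 6.69 and 5.92 FPKM in control and 6.75, 6.67 and 6.94 with overexpression. It was lowest in control replicate 3, and its log2 fold change was 0.06 (SE 0.07; limma adjusted p = 0.866). Ppp1r15a encodes the phosphatase subunit that reverses the phosphorylation of eIF2, and its highest library was overexpression replicate 1 at 17.7 FPKM, with the 5 others between 13.2 and 16.3.

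Feedback genes downstream of ATF4 differed more. Trib3, a pseudokinase that restrains ATF4 and AKT (chromosome 2, 152337422 to 152344032), had 14.995, 15.89 and 36.23 FPKM in control and 14.005, 20.45 and 18.54 with overexpression. Control replicate 3 was 2.35 times the mean of the other controls, while overexpression replicate 1 was the lowest library of all. Chac1, an enzyme that degrades glutathione (chromosome 2, 119351229 to 119354381), had 8.93, 9.64 and 25.3 FPKM in control and 15.9, 18.9 and 14.6 with overexpression. All overexpression libraries stood between control replicates 1 and 2 on one side and control replicate 3 on the other, at 1.71, 2.03 and 1.57 times the mean of control replicates 1 and 2. Its log2 fold change of 0.30 was the highest among members (SE 0.36; limma adjusted p = 0.881). Without control replicate 3 it was 0.76 (SE 0.11; limma adjusted p = 0.160). It was 0.05 without control replicate 1, 0.10 without control replicate 2 and 0.08 with control replicates 1 and 2 averaged. Sesn2, a leucine-sensing inhibitor of mTORC1, had 8.75, 9.28 and 13.3 FPKM in control and 11.57, 11.02 and 11.15 with overexpression, and was arranged like Chac1. Ddit4, another mTORC1 inhibitor, was not. It had 43.9, 43.8 and 43.5 FPKM in control and 32.8, 48.8 and 54.8 with overexpression. The controls of Ddit4 lay within 1.01-fold of each other and its spread was all in the overexpression group.

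All 8 serine, glycine and folate genes were tested, and all 8 had estimates above 0 with a median of 0.16, also after rescaling to the upper quartile or to total reads. With control replicates 1 and 2 averaged, 6 of 8 were above 0 with a median of 0.023, and with array weights added 4 of 8 with a median of 0.00086. Without control replicate 1, 6 of 8 were above 0 (median 0.012), without control replicate 2, 7 of 8 (0.035), and without control replicate 3, 8 of 8 (0.38). In 5 of the 8 all overexpression libraries lay below control replicate 3. In all 8, control replicate 3 and every overexpression library lay above control replicates 1 and 2. Phgdh, the entry enzyme of serine synthesis (chromosome 3, 98313170 to 98339990), had 84.2, 85.3 and 142 FPKM in control and 143, 112 and 113 with overexpression. Its log2 fold change was 0.28 (SE 0.21; limma adjusted p = 0.848), and 0.52 (SE 0.12; limma adjusted p = 0.211) without control replicate 3. Averaging control replicates 1 and 2 gave 0.15 for Phgdh. Psat1, the transaminase of the next step (chromosome 19, 15904678 to 15947337), had 64.6, 64.6 and 96.2 FPKM in control and 98.4, 78.5 and 78.7 with overexpression. The log2 fold change was 0.20 (SE 0.17; limma adjusted p = 0.850), and 0.39 (SE 0.11; limma adjusted p = 0.260) without control replicate 3. Averaging control replicates 1 and 2 gave 0.10 for Psat1. For Phgdh and Psat1, overexpression replicate 1 reached the level of control replicate 3, at 1.68 and 1.52 times the mean of control replicates 1 and 2. Psph, the phosphatase that completes serine synthesis, had 7.17, 7.51 and 14.8 FPKM in control and 10.8, 10.5 and 10.7 with overexpression. The overexpression values of Psph were close together and stood between the control values. Exons of Psph overlap those of Cct6a on the other strand over 10.4% of its exon length.

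Among the mitochondrial folate enzymes, Mthfd2 had the widest control range. Mthfd2, a folate dehydrogenase and cyclohydrolase, had 18.4, 18.9 and 39.8 FPKM in control and 31.3, 26.0 and 26.5 with overexpression. Shmt2, which moves a carbon from serine to folate in mitochondria, had 51.2, 53.2 and 87.2 FPKM in control and 73.9, 65.2 and 66.0 with overexpression. Control replicate 3 exceeded the mean of the other controls 2.13 times for Mthfd2 and 1.67 times for Shmt2. Aldh1l2, which oxidises formyl folate, had a ratio of 1.89, and Mthfd1l, which releases formate, one of 1.30. The cytosolic enzyme Shmt1 had a ratio of only 1.15 and was highest in overexpression replicate 1, at 20.1 FPKM against 14.6, 14.9 and 17.0 in control. Aldh1l2 shares 14.1% of its exon length with D10Wsu102e on the other strand, whose ratio was 0.99.

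Of 7 asparagine, proline, transamination and transsulfuration genes, 6 were tested and 5 had estimates above 0 with a median of 0.09, or 4 after rescaling to total reads. The direction turned with control replicates 1 and 2 averaged, with 2 of 6 above 0 and a median of -0.042. Without control replicate 1 there was 1 of 6 above 0 (median -0.056), without control replicate 2 there were 2 of 6 (-0.027), and without control replicate 3 there were 6 of 6 (0.23). All 3 overexpression libraries lay between control replicates 1 and 2 and control replicate 3 in 4 of the 6. Asns, which makes asparagine (ENSMUSG00000029752, chromosome 6, 7675169 to 7693254), had 46.1, 47.4 and 103 FPKM in control and 71.5, 61.6 and 68.3 with overexpression. Control replicate 3 was 2.20 times the mean of the other controls, and the overexpression libraries were 1.53, 1.32 and 1.46 times that mean. The group means were 65.3 ± 32.3 and 67.1 ± 5.07 FPKM (SD, n = 3), so their difference was far below the control SD. Cth, which makes cysteine from cystathionine, had 3.82, 4.18 and 8.76 FPKM in control and 5.48, 6.43 and 6.29 with overexpression. Its log2 fold change was 0.18 (SE 0.26; limma adjusted p = 0.897), and 0.50 (SE 0.09; limma adjusted p = 0.175) without control replicate 3. Averaging control replicates 1 and 2 gave 0.01 for Cth. Got1, the cytosolic aspartate transaminase, had 19.98, 20.1 and 21.9 FPKM in control and 23.5, 22.7 and 21.3 with overexpression. Got1 differed little between any libraries, with a log2 fold change of 0.12 (SE 0.06; limma adjusted p = 0.842).

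The proline enzymes were split in overexpression replicate 1. Aldh18a1, the entry enzyme of proline synthesis, had 26.9, 28.4 and 41.2 FPKM in control and 36.6, 30.4 and 32.1 with overexpression. Pycr1, which closes the proline ring pathway, had 10.7, 11.4 and 18.2 FPKM in control and 8.64, 13.7 and 14.6 with overexpression. Overexpression replicate 1 was thus 1.32 times the mean of control replicates 1 and 2 for Aldh18a1 and 0.78 times for Pycr1, where it was the lowest library. Gpt2, the mitochondrial alanine transaminase, ranged from 8.43 to 12.8 FPKM with control replicate 3 highest. Cbs, the entry enzyme of transsulfuration, had 7, 1 and 6 reads in control and 6, 1 and 6 with overexpression and was not tested.

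All 9 amino acid transporters were tested and all 9 were highest in control replicate 3. Their estimates were above 0 for 1 and below 0 for 8, with a median of -0.07. Without control replicate 3, 7 of 9 were above 0, with a median of 0.11, and with control replicates 1 and 2 averaged 0 of 9, with a median of -0.17. Slc7a5, the carrier of large neutral amino acids, had 29.6, 30.5 and 62.4 FPKM in control and 45.2, 40.0 and 38.9 with overexpression. Its partner chain Slc3a2 had 46.6, 48.7 and 78.6 FPKM in control and 51.8, 55.7 and 53.9 with overexpression. Both had all overexpression libraries above control replicates 1 and 2 and below control replicate 3, and the ratio of control replicate 3 to the other controls was 2.08 for Slc7a5 and 1.65 for Slc3a2. Slc7a11, the cystine and glutamate exchanger that pairs with the same chain, had 0.97, 0.94 and 2.99 FPKM in control and 1.56, 0.94 and 1.27 with overexpression. Its ratio of 3.13 in control replicate 3 was the highest of the tested members and rested on 277, 279 and 796 reads in control. Slc38a2, a sodium-coupled carrier of small neutral amino acids, had 80.9, 81.8 and 97.8 FPKM in control and 74.98, 89.7 and 73.8 with overexpression. The log2 fold change of -0.13 had a standard error of 0.11 (limma adjusted p = 0.850), and overexpression replicates 1 and 3 lay below all controls. Slc7a3, a carrier of cationic amino acids, was near the limit of testing at 0.98, 1.06 and 1.60 FPKM in control and 1.06, 0.79 and 1.09 with overexpression. Its log2 fold change was -0.16 (SE 0.15; limma adjusted p = 0.850). The other members of this group, Slc7a1, Slc1a4, Slc1a5 and the glycine carrier Slc6a9, had ratios of 1.72, 1.395, 1.28 and 1.84 in control replicate 3.

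Of the secreted factors and the receptor, only Stc2 was tested. Stc2, a secreted glycoprotein, had 4.74, 4.60 and 5.98 FPKM in control and 5.04, 5.56 and 5.30 with overexpression. The values lay within a narrow band, with a log2 fold change of 0.05 (SE 0.10; limma adjusted p = 0.923). Gdf15, a stress hormone of the TGF-beta family, had 11, 10 and 15 reads in control and 6, 9 and 7 with overexpression. Fgf21, a metabolic hormone, had 0, 0 and 2 reads in control and 1, 1 and 0 with overexpression. Vldlr, a lipoprotein receptor, had 31, 31 and 14 reads in control and 19, 15 and 11 with overexpression. These transcripts were at or below 0.42 FPKM in every library, and no comparison was made.

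**Figure D4:**
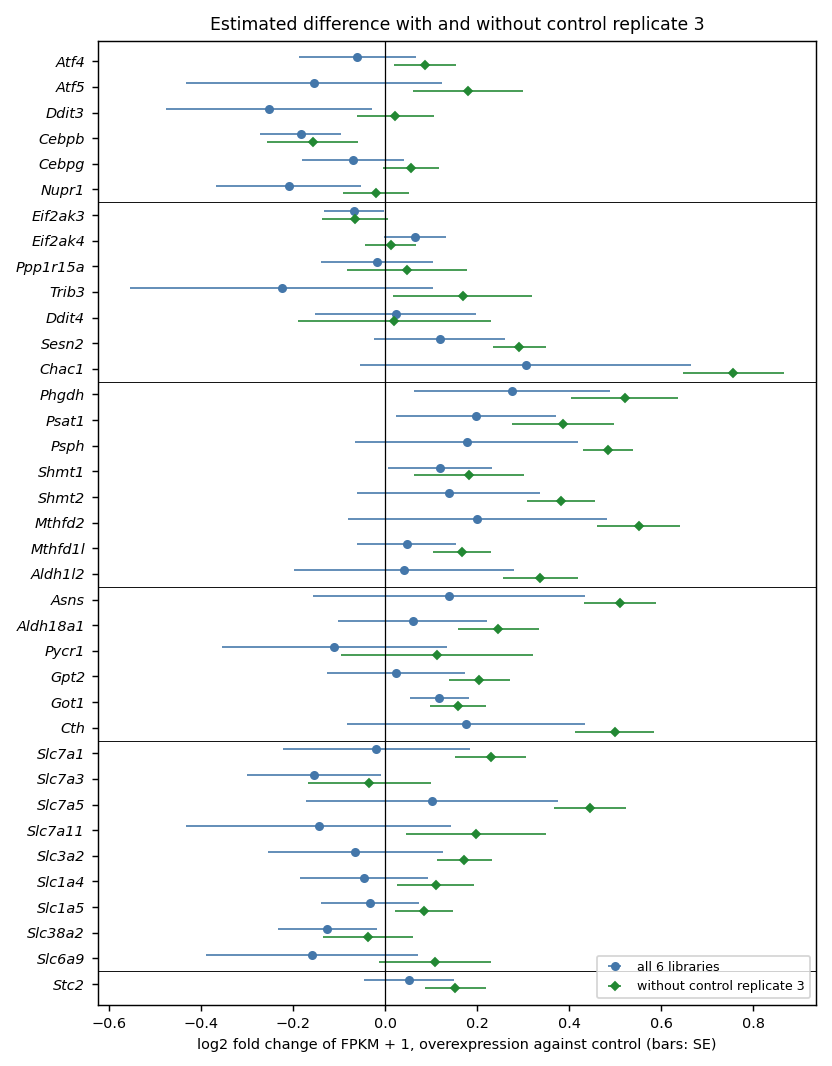
Log2 fold change of FPKM + 1, overexpression against control, with standard errors, for the 37 tested members in the order of their roles, in blue for all 6 libraries and in green without control replicate 3. The blue points lie on both sides of 0 (19 above, 18 below), and 32 of the green points lie above 0, with smaller standard errors for most members. With control replicates 1 and 2 averaged, which is not drawn, 13 of the 37 were above 0.

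The ratios of control replicate 3 can be set beside the TGATGNAA letters as a description. The 8 tested members with the letters had ratios to control replicates 1 and 2 between 1.09 and 3.13, with a median of 1.92. The 24 tested members with a window and no match ranged from 0.88 to 2.13, with a median of 1.49. Slc7a11 (3.13), Chac1 (2.73), Trib3 (2.35) and Asns (2.20), which hold the letters, lay above every member with a window and no match. The other 4 with the letters lay within the range of those without, where Mthfd2 (2.13) and Atf5 (2.04) were highest. Of the 8, Trib3 and Asns hold the broader form only and not TGATGCAA. Cth, Slc7a5, Aldh1l2, Slc7a3 and Slc1a5 were tested but had no window. Their ratios were 2.19, 2.08, 1.89, 1.57 and 1.28, so they could not be placed on either side. No test was made of the difference between members with and without the letters.

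Other genes of the pathway were taken from 4 lists. None of their members passed after adjustment. The genes given with fold changes in each list were those with the smallest p, a choice that favours groups that do not overlap. All 15 genes of the eIF2 branch, which holds the subunits of eIF2, its exchange factor eIF2B and their regulators, were tested. All had estimates above 0 with a median of 0.08, and 13 of 15 were above 0 after rescaling to total reads. For all tested genes these shares were 53.2% and 42.6%. Overexpression replicate 1 was the highest library in 12 of the 15 genes, beside 3197 of all 12222 tested genes. Control replicate 3 was the highest in 1, beside 17.9% of all tested genes. Eif2s3x, a subunit of eIF2, had 32.0, 31.4 and 34.6 FPKM in control and 40.6, 35.3 and 36.0 with overexpression (log2 fold change 0.18, SE 0.07, limma adjusted p = 0.842). Eif2b2, a subunit of the exchange factor, had 34.4, 33.8 and 35.7 FPKM in control and 38.7, 40.2 and 35.8 with overexpression (log2 fold change 0.14, SE 0.06, limma adjusted p = 0.842). Both had all overexpression libraries above all controls, as did 6.81% of all tested genes.

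Of 18 other amino acid transporters 9 were tested, with 6 estimates above 0, or 3 after rescaling to total reads. Control replicate 3 was the highest library in 0 of them, beside all 9 of the transporters among the members. Their ratios in control replicate 3 ran from 0.87 to 1.13. Slc6a15, a carrier of branched-chain amino acids and proline, had 11.4, 12.1 and 11.8 FPKM in control and 13.6, 12.4 and 13.7 with overexpression (log2 fold change 0.16, SE 0.06, limma adjusted p = 0.842). Slc38a7, a glutamine carrier, had 9.26, 9.30 and 8.05 FPKM in control and 8.04, 8.32 and 8.22 with overexpression (log2 fold change -0.10, SE 0.07, limma adjusted p = 0.843). Neither gene set control replicate 3 apart from all other libraries.

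Of 24 other amino acid and folate enzymes 20 were tested, with 13 estimates above 0, or 11 after rescaling to total reads. Control replicate 3 was the highest library in 5 of the 20, beside 17.9% of all tested genes. It stood more than 1.5 times above both other controls in 3, beside 2.62% of all tested genes. These were Gclm and Gclc, the subunits of the enzyme that starts glutathione synthesis, and Bcat1, the cytosolic branched-chain transaminase, with ratios of 2.05, 1.67 and 1.57; they are named here after their values were seen. Ahcy, which hydrolyses adenosylhomocysteine, had 24.7, 24.1 and 26.5 FPKM in control and 30.3, 28.7 and 28.7 with overexpression (limma adjusted p = 0.842). Bcat2, the mitochondrial transaminase of branched-chain amino acids, had 2.94, 3.11 and 3.68 FPKM in control and 3.96, 4.20 and 4.78 with overexpression (limma adjusted p = 0.842). Both had all overexpression libraries above all controls, as did 6.81% of all tested genes. The log2 fold change was 0.21 (SE 0.06) for Ahcy and 0.32 (SE 0.10) for Bcat2. Of 23 other stress and autophagy genes linked to ATF4, 22 were tested and 14 had estimates below 0. Without overexpression replicate 1, 13 of the 22 were above 0. Control replicate 3 was the highest library in 11, beside 17.9% of all tested genes. It stood above the mean of control replicates 1 and 2 in 12, with ratios from 0.51 to 1.78 over the list. It was more than 1.5 times above both other controls in 5, beside 2.62% of all tested genes. These were Eif4ebp1 (1.78), Nars (1.68), Xpot (1.67), Ndrg1 (1.64) and Cars (1.60), named after their values were seen. In 7 of the 22 all overexpression libraries lay above control replicates 1 and 2 and below control replicate 3, beside 5% of all tested genes. Vegfa, a growth factor of blood vessels, had 36.5, 36.0 and 46.9 FPKM in control and 27.1, 30.9 and 31.8 with overexpression. Sqstm1, an autophagy adaptor, had 130.5, 128.8 and 162.7 FPKM in control and 122.2, 121.7 and 115.5 with overexpression. In Vegfa and Sqstm1 all overexpression libraries lay below all controls, as in 4.69% of all tested genes. The log2 fold changes were -0.39 (SE 0.12) and -0.22 (SE 0.10), each at a limma adjusted p of 0.842. Control replicate 3 was again the highest library.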

How the data were processed

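Per the file headers, the authors deposited FPKM values for Ensembl gene IDs, 1 table for each of the 6 libraries. Per the submitters' processing notes the build was mm10; for the aligner, counter, use of strand and annotation the entry is not given in the sources used here. Per the labels' protocols, libraries were made with the NEBNext Ultra kit and read as 125 or 150 bp pairs. Symbols, coordinates and exon overlaps came from GENCODE M21. Of 24938 IDs, 24816 had a symbol.

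Whole reads were recovered from the FPKM steps with the exon union as length for 19832 genes (79.5%; tolerance 0.01 reads) and otherwise with the smallest length that gave whole reads (5105 genes). These reads gave the depths, the chi-square values between libraries, the rescaling to total reads, the limma-voom alternative and the read counts quoted. The smallest length can understate the reads of a gene. The main test did not use recovered reads. In the main test, log2(FPKM + 1) was modelled on group alone in limma 3.58.1 (R 4.3.3), using its trend and robust options. It covered genes above 1 FPKM in at least 3 libraries, Benjamini-Hochberg adjusted over all of them at 0.05. The main test was also run on simulated data, with each library drawn independently. Those data held no near-identical control pair, so that run cannot show whether the p-values here are too small. Promoter sequences are RefSeq's (GRCm38.p6).

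The members and lists were chosen with earlier results of these data known. Values per library are given for Atf4, Ddit3, Asns, Trib3, Chac1, Psat1, Phgdh and, in each role group, the members with the highest level, smallest p and widest control ratio, 2 each; fold changes are given for those with the smallest p. Cebpg, Sesn2, Pycr1, Shmt1, Shmt2 and the untested members, and the fold changes of Chac1 and Ddit3, were added after values were seen. Alternatives were other pseudocounts, filters and scalings, the replicate number as a block, limma-voom on recovered reads, array weights, averaging control replicates 1 and 2 (also, added later, with array weights) and leaving out each library.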

Additional observations from a re-analysis of the deposited data

How the results depend on the processing

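The count of 0 genes and 0 members past the threshold was the same with pseudocounts of 0.1 and 5, no filter, a filter at 5 FPKM, both rescalings, limma-voom on recovered reads (774 of 14472 genes at an unadjusted p below 0.05) and control replicates 1 and 2 averaged, with or without array weights. Array weights alone, whose weights were 2.16, 2.57 and 0.24 in control and 0.28, 4.64 and 0.59 with overexpression, so that the latter group rested mostly on replicate 2, called 2241 genes and 8 of 37 members, all 8 higher (21.6%, beside 11.1% of tested genes higher and 7.28% lower). These were Sesn2, Chac1, Phgdh, Psph, Mthfd1l, Got1, Cth and Stc2. Under them Ddit3 reversed to 0.039 and Slc38a2 to 0.083. Leaving out 1 library gave 0 to 2 genes (2 without control replicate 3, 1 without overexpression replicate 1) and 0 members, and a median over members of -0.07 to 0.17. Among the 13 members whose ranges were computed, ranges that crossed 0 were -0.41 to 0.022 for Ddit3, -0.011 to 0.50 for Cth and -0.0082 to 0.15 for Stc2. Over all 37, the members above 0 went from 19 to 32 without control replicate 3, so others crossed 0 too; the cause was not tested beyond the values of control replicate 3 given above. The replicate block called 0 genes, with 444 at an unadjusted p below 0.05 beside 632 without it. Same-numbered libraries correlated at -0.10, 0.083 and 0.0025, and 1 of 6 correlated best with its own number, so no pairing was used. Tested members rested on at least 64 reads per library.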
